A study of Mus musculus with 16 samples.

Results

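Cholesterol synthesis and its control by Srebf2 were followed through 7 genes of 22180 named on the arrays: Srebf2, Hmgcs1, Sqle, Lss, Fdft1, Hsd17b7 and Insig1. They were taken by symbol from the probe sets that carry a single gene symbol, and all 7 passed the filter on dim genes. RNA came from regulatory T (Treg) cells of C57BL/6 mice, sorted from spleen and lymph nodes as CD4+ cells bearing a Foxp3-YFP reporter and then stimulated for 4 h on plates coated with antibodies to CD3 and CD28. The 16 arrays formed 4 groups of 4. Atg7-/- cells (Atg7fl/flFoxp3-Cre, both Atg7 alleles floxed) came from mice given rapamycin or left untreated, and Atg7+/- cells (Atg7+/flFoxp3-Cre, 1 allele floxed) came from mice given rapamycin or left untreated. The dose of rapamycin was 4 mg per kg of body weight, given into the peritoneum daily over 5 days, before the cells were sorted and stimulated. Every group carried the Cre recombinase expressed with Foxp3 and at least 1 floxed Atg7 allele, so no group was without the transgene. Atg7 encodes an enzyme needed to build autophagosomes, and rapamycin inhibits the kinase mTOR. The ages of the mice were not given, and nothing in the labels says whether the 4 arrays of a group came from separate mice. The p-values therefore describe the spread among these 16 arrays alone, part of which may be technical.

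Animal cells make cholesterol from acetyl-CoA through mevalonate, farnesyl diphosphate, squalene and lanosterol. Srebf2 encodes SREBP2, a transcription factor held in the membrane of the endoplasmic reticulum, which travels to the Golgi with the escort protein SCAP when sterols run short, is cut there by proteases and enters the nucleus to switch on the genes of this pathway. The INSIG proteins hold SCAP back when sterols are plentiful, and activated T cells are known to raise sterol synthesis as they prepare to divide, with mTOR complex 1 among the promoters of SREBP activity.

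Each probe set has a log2 signal on each array, and a difference of 1 is a doubling. The array medians lay between 4.411 and 4.632. All 7 Treg markers were tested, and Foxp3 averaged 10.995 in rapamycin-treated Atg7-/- cells and 10.86 in untreated Atg7-/- cells, against 11.34 in rapamycin-treated Atg7+/- cells and 11.26 in untreated Atg7+/- cells. Foxp3 was called lower in Atg7-/- than in Atg7+/- cells without rapamycin (difference -0.40, adjusted p = 0.0355) and not with it (-0.35, adjusted p = 0.0662). With rapamycin Cd4 fell by 0.75 in Atg7-/- cells and by 0.67 in Atg7+/- cells, Cd3e fell by 0.35 and 0.55, and Tnfrsf18 rose by 0.26 and 0.29, all called; Ctla4 fell by 0.37 in Atg7-/- cells alone among the calls. Summed on the linear scale, the 7 Treg markers gave 13020 to 13450 and 13170 to 14680 in rapamycin-treated and untreated Atg7-/- cells, and 13640 to 14690 and 13710 to 14660 in rapamycin-treated and untreated Atg7+/- cells. Of the B cell markers, 5 of 6 were analysed and summed to at most 116.3 on any array. Atg7, the targeted gene, was measured by 1 probe set. It read 6.73, 6.59, 6.02 and 6.59 in rapamycin-treated Atg7-/- cells, against 6.67, 6.79, 6.82 and 6.85 in rapamycin-treated Atg7+/- cells. In untreated cells it read 6.41, 6.44, 6.62 and 6.05 in Atg7-/- cells, against 6.74, 6.65, 6.65 and 6.59 in Atg7+/- cells. The means were lower in Atg7-/- cells, but replicate 1 of the rapamycin-treated Atg7-/- group and replicate 3 of the untreated Atg7-/- group lay inside the range of the matching Atg7+/- arrays, and neither difference passed the test (adjusted p = 0.232 with rapamycin and 0.299 without). Whether the probes lie in the deleted part of the gene was not tested.

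Rapamycin lowered 2 of the 7 genes in both genotypes: Srebf2, the regulator, and Hsd17b7, an enzyme of the late pathway. A gene was called where its adjusted p in limma was under 0.05. Among Atg7-/- cells 2 of 7 genes were lower and 0 higher, where 20.0% of all 16760 genes tested were called, 11.1% lower and 8.83% higher. Among Atg7+/- cells 2 of 7 were again lower and 0 higher, where 14.1% of all genes were called, 8.11% lower and 6.03% higher. The median log2 difference of the 7 genes was -0.32 in Atg7-/- cells, against -0.04 over all genes, and -0.38 in Atg7+/- cells, against -0.03 over all genes. Of the 7 differences, 5 were negative in Atg7-/- cells and 7 in Atg7+/- cells. The 2 comparisons set different arrays against each other. They share the same estimate of the spread of each gene, taken from all arrays together, so their calls are not independent. These are bulk samples, in which fewer cells making a transcript and less transcript per cell cannot be told apart.

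**Figure D1:**
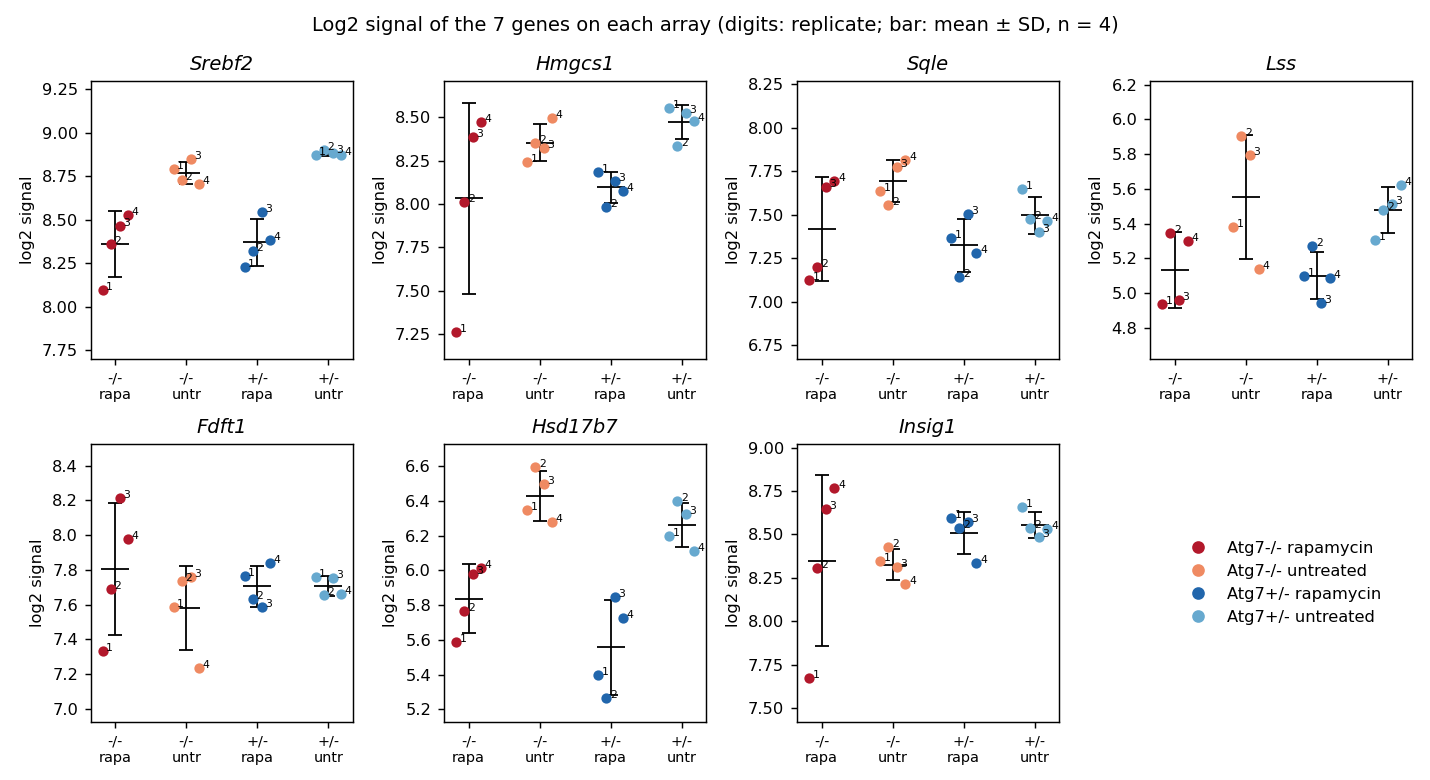
Log2 signal (vertical axis) of each of the 7 genes on each of the 16 arrays (points), with the group mean as a bar, in rapamycin-treated and untreated Atg7-/- cells and in rapamycin-treated and untreated Atg7+/- cells. Srebf2 and Hsd17b7 sit lower with rapamycin in both genotypes with no overlap, whereas the rapamycin-treated Atg7-/- arrays spread widely for Hmgcs1 and Insig1.

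Srebf2, which encodes the transcription factor itself, read 8.10, 8.36, 8.47 and 8.53 in rapamycin-treated Atg7-/- cells, against 8.79, 8.73, 8.85 and 8.70 in untreated Atg7-/- cells. In Atg7+/- cells it read 8.23, 8.32, 8.54 and 8.39 with rapamycin, against 8.87, 8.90, 8.89 and 8.87 without. Every rapamycin array was below every untreated array of its genotype. The mean was 8.36 ± 0.191 against 8.77 ± 0.0655 in Atg7-/- cells (SD, n = 4 each), and Srebf2 fell by 0.41 on the log2 scale (SE 0.0947, 95% interval -0.61 to -0.21, adjusted p = 0.00593), a loss of 24.5% of the signal. In Atg7+/- cells the mean was 8.37 ± 0.133 against 8.88 ± 0.0137 (SD, n = 4 each), a fall by 0.51 (95% interval -0.71 to -0.31, adjusted p = 0.00205), or 30% of the signal. The 2 falls differed by 0.11 (SE 0.134, 95% interval -0.17 to 0.39, adjusted p = 0.918), so a difference between the genotypes was not shown, and the interval leaves room for one of up to 0.39. Only 7.94% of all genes tested had a more negative rapamycin difference in Atg7-/- cells, and 3.48% in Atg7+/- cells. The untreated Atg7+/- arrays lay unusually close together for Srebf2: the share of genes with a smaller SD in that group was 0.298%.

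An intron of Srebf2 holds the microRNA gene Mir33, whose product is known to target the cholesterol exporter ABCA1. Its own probe set was too dim to be tested, with group means of 2.69 and 2.70 in rapamycin-treated and untreated Atg7-/- cells and of 2.70 and 2.63 in rapamycin-treated and untreated Atg7+/- cells.

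Insig1, the retention protein that is itself a known SREBP target, did not pass the test in either genotype. It read 7.67, 8.31, 8.65 and 8.77 in rapamycin-treated Atg7-/- cells, against 8.35, 8.43, 8.31 and 8.21 in untreated Atg7-/- cells. The Atg7+/- cells read 8.60, 8.54, 8.57 and 8.33 with rapamycin, against 8.66, 8.54, 8.49 and 8.53 without. The groups overlapped in both genotypes, and the treated Atg7-/- arrays lay on both sides of the untreated ones. The log2 difference was 0.02 in Atg7-/- cells (SE 0.164, 95% interval -0.32 to 0.37, adjusted p = 0.936) and -0.04 in Atg7+/- cells (95% interval -0.39 to 0.30, adjusted p = 0.888). The SD in rapamycin-treated Atg7-/- cells was 0.49, larger than that of 97.4% of genes in the group, against 0.0887 in untreated Atg7-/- cells. Without replicate 1 of the rapamycin-treated Atg7-/- group the difference was 0.25 (adjusted p = 0.117).

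Hmgcs1 encodes the cytosolic HMG-CoA synthase, which makes the precursor of mevalonate at the head of the pathway. It read 7.27, 8.01, 8.38 and 8.47 in rapamycin-treated Atg7-/- cells, against 8.24, 8.35, 8.32 and 8.50 in untreated Atg7-/- cells. For Atg7+/- cells the signals were 8.19, 7.98, 8.13 and 8.08 with rapamycin, against 8.55, 8.34, 8.52 and 8.48 without. The groups did not overlap in Atg7+/- cells, where all 4 treated arrays were lower, and overlapped in Atg7-/- cells, where replicate 1 was far below the other 3 treated arrays. The log2 difference was -0.38 in Atg7+/- cells (adjusted p = 0.172) and -0.32 in Atg7-/- cells (SE 0.179, 95% interval -0.70 to 0.06, adjusted p = 0.22), so neither passed the test. The SD was 0.55 in rapamycin-treated Atg7-/- cells and 0.107 in untreated Atg7-/- cells, and 98.3% of genes had a smaller SD than Hmgcs1 among the treated arrays. Without replicate 1 of the rapamycin-treated Atg7-/- group, the difference in Atg7-/- cells was -0.06 (adjusted p = 0.722), and that in Atg7+/- cells passed (adjusted p = 0.0184) on an unchanged estimate. It also passed when only the untreated and treated Atg7+/- arrays entered the fit (adjusted p = 0.0123).

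Fdft1 encodes squalene synthase, which joins farnesyl diphosphate units in the first step committed to sterols. It read 7.33, 7.69, 8.22 and 7.98 in rapamycin-treated Atg7-/- cells, against 7.59, 7.74, 7.76 and 7.24 in untreated Atg7-/- cells. Its signals in Atg7+/- cells were 7.76, 7.63, 7.59 and 7.84 with rapamycin, against 7.76, 7.65, 7.75 and 7.66 without. The groups overlapped in both genotypes. Fdft1 had the highest estimate of the 7 genes in Atg7-/- cells, 0.22 (SE 0.151, 95% interval -0.09 to 0.54, adjusted p = 0.311), and it did not pass the test. In Atg7+/- cells the estimate was near 0 (95% interval -0.32 to 0.32, adjusted p = 0.996).

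Sqle encodes squalene epoxidase, a rate-controlling enzyme of the pathway. It read 7.13, 7.20, 7.66 and 7.69 in rapamycin-treated Atg7-/- cells, against 7.64, 7.56, 7.78 and 7.81 in untreated Atg7-/- cells. Arrays of Atg7+/- cells read 7.37, 7.14, 7.50 and 7.28 with rapamycin, against 7.65, 7.47, 7.40 and 7.46 without. Replicates 1 and 2 of the treated Atg7-/- group were below all untreated ones and the other 2 were not, so the groups overlapped in Atg7-/- cells, as they did in Atg7+/- cells. The differences were -0.28 in Atg7-/- cells (95% interval -0.54 to -0.01, adjusted p = 0.129) and -0.17 in Atg7+/- cells (95% interval -0.44 to 0.09, adjusted p = 0.388), and neither passed.

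Lss encodes lanosterol synthase, which folds the epoxide made by squalene epoxidase into the first sterol. It read 4.94, 5.35, 4.96 and 5.30 in rapamycin-treated Atg7-/- cells, against 5.38, 5.91, 5.79 and 5.14 in untreated Atg7-/- cells. In Atg7+/- cells it read 5.10, 5.27, 4.94 and 5.08 with rapamycin, against 5.31, 5.48, 5.51 and 5.62 without. The groups did not overlap in Atg7+/- cells, and in Atg7-/- cells only untreated replicate 4 lay within the treated range. Lss sat at the edge of the test, with a difference of -0.42 in Atg7-/- cells (SE 0.148, 95% interval -0.73 to -0.11, adjusted p = 0.0536) and of -0.38 in Atg7+/- cells (95% interval -0.69 to -0.07, adjusted p = 0.0946). After quantile normalization it passed in both (adjusted p = 0.0313 in Atg7-/- cells and 0.0278 in Atg7+/- cells). Without replicate 4 of the untreated Atg7-/- group it passed in Atg7-/- cells (adjusted p = 0.011). Other settings moved it away from the threshold. Without replicate 1 of the rapamycin-treated Atg7-/- group its adjusted p in Atg7-/- cells was 0.128. Over the fits that left out 1 array, the adjusted p reached 0.167 in Atg7-/- cells. In Atg7+/- cells it ran from 0.0545 to 0.203 and never passed.

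Hsd17b7 encodes a reductase that acts while methyl groups are removed from the sterol ring after lanosterol, and can also convert estrone to estradiol. It read 5.59, 5.76, 5.98 and 6.01 in rapamycin-treated Atg7-/- cells, against 6.34, 6.59, 6.50 and 6.28 in untreated Atg7-/- cells. The Atg7+/- cells read 5.40, 5.26, 5.85 and 5.73 with rapamycin, against 6.20, 6.40, 6.33 and 6.11 without. All treated arrays were below all untreated arrays in both genotypes. Hsd17b7 fell by 0.59 in Atg7-/- cells (SE 0.13, adjusted p = 0.00399), a loss of 33.7% of the signal, with means of 5.84 ± 0.199 and 6.43 ± 0.144 (SD, n = 4 each). It fell by 0.70 in Atg7+/- cells (95% interval -0.97 to -0.43, adjusted p = 0.00214), a loss of 38.5%, with means of 5.56 ± 0.273 and 6.26 ± 0.127 (SD, n = 4 each). The difference between the falls was 0.11 (SE 0.184, 95% interval -0.28 to 0.50, adjusted p = 0.949). Of all genes tested, 2.83% had a more negative rapamycin difference in Atg7-/- cells and 1.18% in Atg7+/- cells.

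Counted by arrays alone, 2 of the 7 genes (Srebf2 and Hsd17b7) had every treated array below every untreated one in Atg7-/- cells, as did 11.6% of all genes, and 4 of the 7 (these and Hmgcs1 and Lss) did so in Atg7+/- cells, as did 13.1% of all genes. The calls for Srebf2 and Hsd17b7 held in both genotypes in every fit that left out 1 array. The highest adjusted p among those fits was 0.0199 for Srebf2 and 0.0154 for Hsd17b7, both in Atg7-/- cells.

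**Figure D2:**
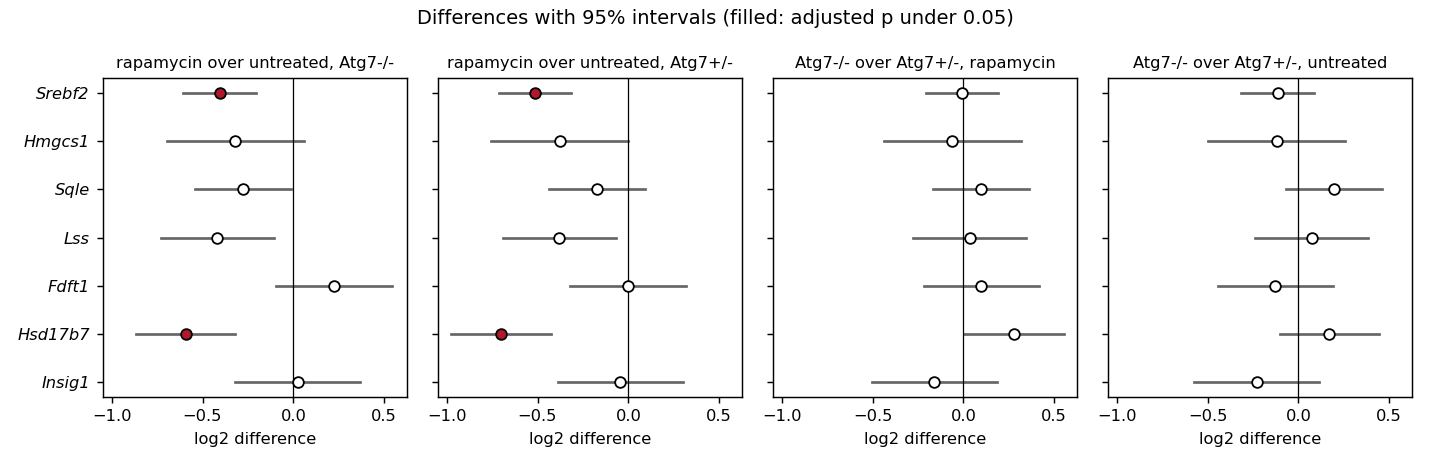
Log2 differences of the 7 genes with 95% intervals, for rapamycin over untreated in Atg7-/- and Atg7+/- cells and for Atg7-/- over Atg7+/- cells with rapamycin and untreated; filled points passed an adjusted p under 0.05. The intervals of Srebf2 and Hsd17b7 lie wholly below 0 for rapamycin in both genotypes, as do those of Lss, which did not pass after adjustment, and no filled point appears for genotype.

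Loss of Atg7 moved none of the 7 genes past the threshold. In rapamycin-treated cells 0 of 7 were called between Atg7-/- and Atg7+/- cells, where 3.24% of all genes were. Of the 7, 1 had an unadjusted p under 0.05, as did 3067 of all 16760 genes. In untreated cells 0 of 7 were called, where 3.14% of all genes were. Of the 7, 0 had an unadjusted p under 0.05, against 2910 of all 16760 genes. The estimate closest to a call was Hsd17b7 with rapamycin, 0.28 higher in Atg7-/- cells on overlapping arrays (95% interval 0.01 to 0.55, adjusted p = 0.261). In untreated cells all 4 Atg7-/- arrays were below all 4 Atg7+/- arrays for Insig1 and for Srebf2, 2 of 7 genes, where 5.97% of all genes did the same. The differences there were -0.23 for Insig1 (95% interval -0.57 to 0.12, adjusted p = 0.515) and -0.11 for Srebf2 (95% interval -0.31 to 0.08, adjusted p = 0.582). With rapamycin the arrays of the genotypes overlapped for both, and the differences were -0.16 for Insig1 (adjusted p = 0.677) and -0.01 for Srebf2 (adjusted p = 0.983).

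The genotype intervals of the enzymes bound what these arrays could show. In untreated cells they ran from -0.50 to 0.26 for Hmgcs1, from -0.44 to 0.19 for Fdft1 and from -0.07 to 0.46 for Sqle. For Lss the interval was -0.24 to 0.38 and for Hsd17b7 it was -0.10 to 0.44. The test of whether rapamycin acted differently in the genotypes called 0 of 7 genes and 0 of 16760 (0.00%), with 1052 genes at an unadjusted p under 0.05. None of the 7 was among those 1052, and the median of the 7 differences was 0.07. Estimates ran from -0.10 for Sqle (95% interval -0.48 to 0.27) to 0.23 for Fdft1 (95% interval -0.22 to 0.67).

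The rest of the pathway was read through lists of genes chosen by function. Of 17 other sterol synthesis enzymes, 13 were analysed and tested. With rapamycin 4 of 13 fell in Atg7-/- cells and 0 rose, where 11.1% of all genes were called lower, and the median difference was -0.19. The 4 act after lanosterol: Msmo1, the methylsterol monooxygenase, Cyp51, the lanosterol demethylase, Ebp, a sterol isomerase, and Lbr, a nuclear envelope protein with sterol reductase activity. None of the 13 (0 of 13) was called by limma in Atg7+/- cells, where 8.11% of all genes were called lower. In that genotype 5 of the 13 had an unadjusted p under 0.05, as did 4868 of all 16760 genes. The smallest adjusted p of the 13 was 0.0742 and their median difference was -0.15. The difference between the genotypes in the rapamycin effect was called for 0 of the 13.

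Msmo1 read 5.27, 6.34, 6.78 and 6.55 in rapamycin-treated Atg7-/- cells, against 6.64, 7.23, 7.13 and 6.99 in untreated Atg7-/- cells, a fall by 0.76 (SE 0.231, adjusted p = 0.027). For Atg7+/- cells the signals were 6.24, 6.49, 6.78 and 6.33 with rapamycin, against 7.09, 7.08, 7.21 and 6.96 without, a difference of -0.63 (adjusted p = 0.078). The arrays overlapped in Atg7-/- cells and were separate in Atg7+/- cells, and the test was passed in Atg7-/- cells alone. Cyp51 read 6.17, 7.13, 7.48 and 7.05 in rapamycin-treated Atg7-/- cells, against 7.45, 7.53, 7.64 and 7.42 in untreated Atg7-/- cells, a fall by 0.55 (adjusted p = 0.0447). In Atg7+/- cells its difference was -0.36 (adjusted p = 0.217). Ebp fell by 0.43 in Atg7-/- cells (adjusted p = 0.0287), with -0.36 in Atg7+/- cells (adjusted p = 0.0742). Lbr was the only one of the 4 with no overlap in Atg7-/- cells, reading 8.002 to 8.17 with rapamycin against 8.32 to 8.51 without, a fall by 0.31 (adjusted p = 0.0133), with -0.19 in Atg7+/- cells (adjusted p = 0.129). Without replicate 1 of the rapamycin-treated Atg7-/- group, the differences were -0.44 for Msmo1 (adjusted p = 0.047), -0.29 for Cyp51 (adjusted p = 0.0956), -0.29 for Ebp (adjusted p = 0.0852) and -0.30 for Lbr (adjusted p = 0.0285). The calls for Cyp51, Ebp, Msmo1 and Lbr were each lost under at least 1 other setting, with adjusted p up to 0.115, 0.0852, 0.084 and 0.0531. That of Cyp51 was the least stable: it was lost in 14 of the 16 fits that left out 1 array. The same fits lost the call 4 times for Ebp, 3 times for Msmo1 and 0 times for Lbr.

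The other 9 enzymes were not called, at any step. Fdps, the farnesyl diphosphate synthase, differed by 0.05 in Atg7-/- cells and 0.02 in Atg7+/- cells (adjusted p = 0.86 and 0.951). Mvk, the mevalonate kinase, differed by 0.05 and 0.14 (adjusted p = 0.849 and 0.624). Ggps1, which leads to geranylgeranyl diphosphate and away from sterols, differed by 0.16 and 0.21 (adjusted p = 0.275 and 0.181). Of enzymes after lanosterol, Nsdhl differed by -0.03 and -0.10 (adjusted p = 0.898 and 0.628) and Tm7sf2 by -0.19 and 0.13 (adjusted p = 0.197 and 0.448), in Atg7-/- and Atg7+/- cells. Sc5d and Dhcr7, which also act after lanosterol, had negative estimates in both genotypes. Sc5d differed by -0.23 and -0.36 (adjusted p = 0.257 and 0.0906), with separate arrays in Atg7+/- cells. Dhcr7 differed by -0.21 and -0.31 (adjusted p = 0.223 and 0.0954).

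**Figure D3:**
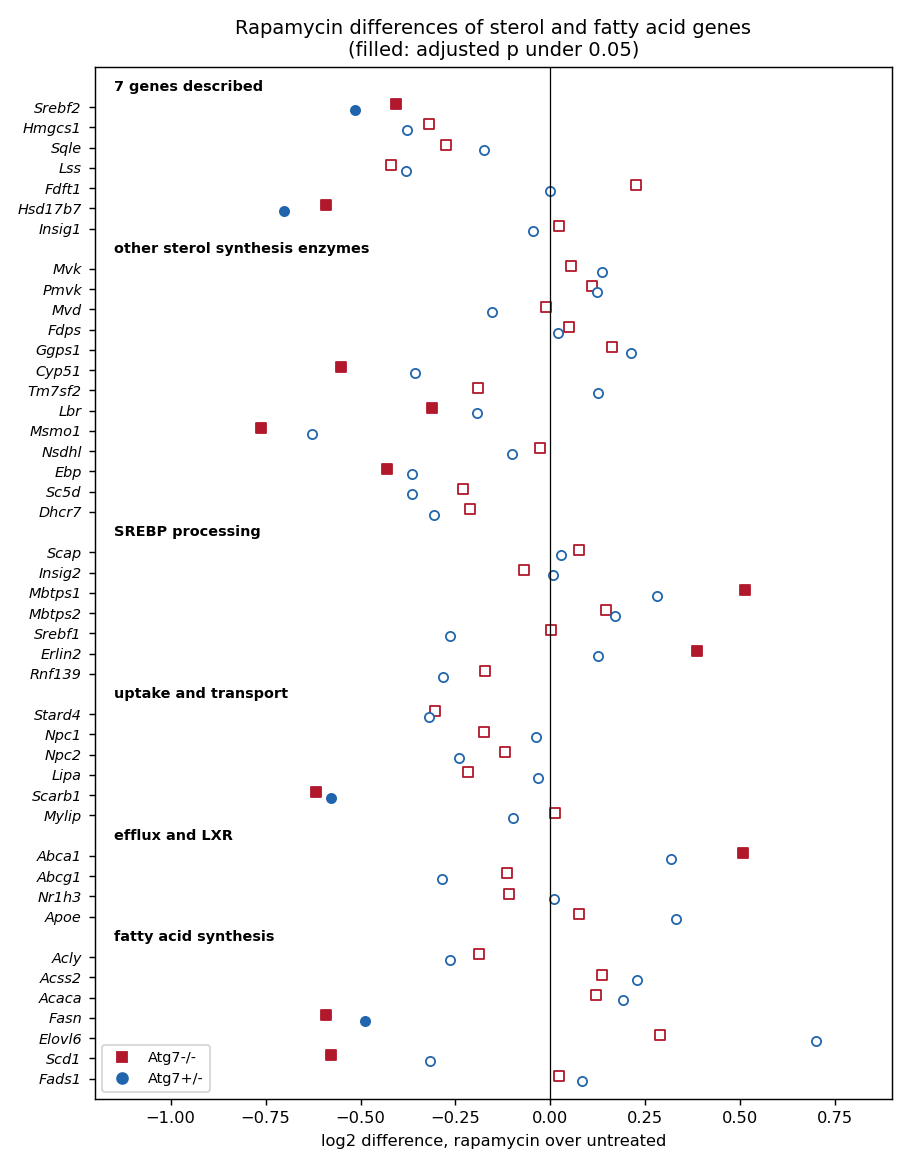
Log2 difference of rapamycin over untreated (horizontal axis) for genes of sterol synthesis, SREBP processing, sterol uptake, transport and efflux and fatty acid synthesis, in Atg7-/- cells (squares) and Atg7+/- cells (circles); filled symbols passed an adjusted p under 0.05. Srebf2, Hsd17b7, Scarb1 and Fasn passed on the lower side in both genotypes.

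Of the 8 listed genes that process or regulate SREBPs, 7 were tested. Rapamycin-treated Atg7-/- cells differed in 2 of 7, which rose, while 0 fell, where 8.83% of all genes were called higher. In Atg7+/- cells 0 of 7 were called. There 2 of 7 had an unadjusted p under 0.05, as did 4868 of all 16760 genes. Mbtps1, the protease that makes the first cut in SREBPs, read 7.79, 7.70, 7.997 and 8.03 in rapamycin-treated Atg7-/- cells, against 7.42, 7.56, 7.28 and 7.22 in untreated Atg7-/- cells. The arrays did not overlap, and Mbtps1 rose by 0.51 (adjusted p = 0.00236). Its signals in Atg7+/- cells were 7.82 to 7.94 with rapamycin against 7.41 to 7.80 without, a difference of 0.28 (adjusted p = 0.0795). Erlin2, a membrane protein of the endoplasmic reticulum, rose by 0.39 in Atg7-/- cells (adjusted p = 0.0334), a call lost after quantile normalization (adjusted p = 0.0831). Scap, the escort protein, differed by 0.08 in Atg7-/- cells and 0.03 in Atg7+/- cells (adjusted p = 0.652 and 0.896). Insig2, the second retention protein, differed by -0.07 and 0.01 (adjusted p = 0.659 and 0.978).

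Of the 8 listed genes of sterol uptake and transport, 6 were tested, and 1 of 6 fell in each genotype, a share near the 11.1% of all genes called lower in Atg7-/- cells and the 8.11% in Atg7+/- cells. It was Scarb1, the receptor for high-density lipoprotein. Scarb1 read 5.97, 5.56, 5.97 and 5.99 in rapamycin-treated Atg7-/- cells, against 6.75, 6.53, 6.51 and 6.17 in untreated Atg7-/- cells, a fall by 0.62 (adjusted p = 0.00461). Arrays of Atg7+/- cells read 5.34, 5.75, 5.97 and 5.77 with rapamycin, against 6.26, 6.42, 6.24 and 6.22 without, a fall by 0.58 (adjusted p = 0.0105). The arrays were separate in both genotypes. Among genes of efflux, esterification and the oxysterol receptors LXR, 6 of 9 were analysed and 4 tested. Abca1, the cholesterol exporter, was the 1 of 4 that rose in Atg7-/- cells, where 8.83% of all genes were called higher, by 0.51 (adjusted p = 0.00955), with a difference of 0.32 in Atg7+/- cells (adjusted p = 0.104). Of 10 listed genes of fatty acid synthesis, which are linked more to SREBP1, 9 were analysed and 7 tested. With rapamycin 2 of 7 fell in Atg7-/- cells, where 11.1% of all genes were called lower, and 1 of 7 in Atg7+/- cells, where 8.11% were. In both genotypes 0 rose and 3 of 7 differences were negative, and the medians were 0.02 and 0.08. The largest estimate was that of Elovl6, a fatty acid elongase, 0.70 in Atg7+/- cells (adjusted p = 0.116) and 0.29 in Atg7-/- cells (adjusted p = 0.512), neither called. Fasn, the fatty acid synthase, fell by 0.59 in Atg7-/- cells (adjusted p = 0.00084) and by 0.49 in Atg7+/- cells (adjusted p = 0.00519). Scd1, a fatty acid desaturase, fell by 0.58 in Atg7-/- cells (adjusted p = 0.0305), a call lost in 3 of the fits that left out 1 array (adjusted p up to 0.0835). It was dim and passed the filter only through the untreated Atg7-/- group, whose mean was 3.67, against 3.09 with rapamycin. That group is the reference of the comparison, so the filter itself favoured a fall of Scd1, which is 1 of the 2 counted. Srebf1, which encodes SREBP1, differed by 0.00 in Atg7-/- cells and -0.27 in Atg7+/- cells (adjusted p = 0.999 and 0.197).

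The spread of the 7 genes was not even across groups. Replicate 1 of the rapamycin-treated Atg7-/- group was the lowest of its 4 arrays for 7 of 7 genes, where 29.3% of all genes tested were lowest on that array, and for 9 of the 13 other enzymes. Its deviation from the group mean had a median of -0.29 over the 7 genes and of -0.21 over the other enzymes, against -0.00764 over all genes. The largest deviations were -0.77 for Hmgcs1, -0.67 for Insig1 and -0.47 for Fdft1, and those of Lss, Hsd17b7, Srebf2 and Sqle lay between -0.29 and -0.20. Among all genes on that array, 0.674% deviated further down than Hmgcs1 and 1.03% further down than Insig1. Replicate 4 of the same group was the highest for 5 of the 7 genes. Replicate 3 was the highest for 9 of the 13 other enzymes, where 37.3% of all genes were highest on it. This was not particular to Atg7-/- cells. Replicate 3 of the rapamycin-treated Atg7+/- group was also the highest of its group for 9 of the 13, where 31.2% of all genes were highest on it. Across all genes, the root mean square deviation was 0.214, 0.165, 0.242 and 0.159 on the 4 rapamycin-treated Atg7-/- arrays and 0.1365 to 0.1878 on the other 12.

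Markers of other cells were set beside that spread. The summed linear signal of the conventional T cell markers, 9 of 10 analysed, was 3282, 4671, 5445 and 4138 on replicates 1 to 4 of the rapamycin-treated Atg7-/- group, against 4596 to 5364 in untreated Atg7-/- cells. The same sum was 2950 to 3926 in rapamycin-treated against 4310 to 4488 in untreated Atg7+/- cells. Replicate 1, where the 7 genes were lowest, was also the lowest of its group for this sum, and rapamycin-treated Atg7+/- cells were below untreated Atg7+/- cells on every array. The Treg marker sum was lowest on replicate 1 as well, at 13020 against 13440, 13110 and 13450 on replicates 2 to 4. The myeloid, B cell and CD8 T and NK cell sums were not lowest there. The conventional T cell sum is carried by its brightest genes, among them Il2 and Cd40lg, and the list did not move one way: with rapamycin 3 of 9 fell and 2 of 9 rose in each genotype. Of all genes, 11.1% were called lower and 8.83% higher in Atg7-/- cells, and 8.11% and 6.03% in Atg7+/- cells. Il7r averaged 8.59 with rapamycin against 8.04 without in Atg7+/- cells, and Satb1 averaged 9.91 against 9.47, both called higher. The myeloid marker sum, with all 8 genes analysed, was 323, 328.9, 760.7 and 298.3 on the rapamycin-treated Atg7-/- arrays, against 439.2 to 459.4 in untreated Atg7-/- cells. Atg7+/- cells gave 334.9 to 473.5 with rapamycin, against 341 to 401.1 without. Of defining markers, Itgam, Klrd1 and Ms4a1 were below the filter for dim genes. CD8 T and NK cell markers summed to 391.5 to 438 in rapamycin-treated Atg7-/- cells against 463.2 to 497.6 in untreated Atg7-/- cells, and to 234.6 to 286.6 in rapamycin-treated Atg7+/- cells against 322.4 to 354.7 in untreated Atg7+/- cells. Nkg7 and Cd8b1 carry most of that sum, averaging 7.85 and 7.37 in untreated Atg7-/- cells. The other markers of that list averaged at most 4.67 there, the mean of Cd8a. B cell markers summed to 85.09 to 103.5 against 102.6 to 115.3 in Atg7-/- cells, and to 85.89 to 108.9 against 98.91 to 116.3 in Atg7+/- cells, with rapamycin and without. The part of these markers in the lower values of Srebf2, Hsd17b7 and the other genes was not tested.

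**Figure D4:**
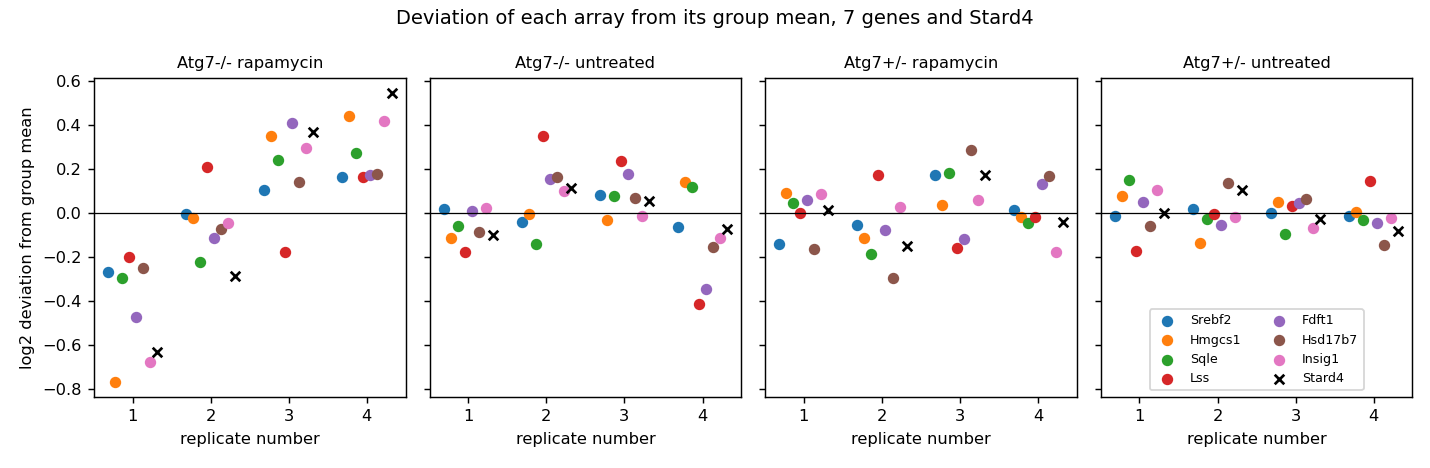
Deviation of each array from the mean of its group (vertical axis, log2) for the 7 genes (points) and Stard4 (crosses), by group and replicate number (horizontal axis). Replicate 1 of the rapamycin-treated Atg7-/- group has its 7 gene values between -0.77 and -0.20, each the lowest of its gene in that group.

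Likeness among the 7 genes over the 16 arrays varied from pair to pair. Srebf2 and Hsd17b7 had a Pearson r of 0.87 and Hmgcs1 and Insig1 one of 0.74, but Srebf2 and Fdft1 one of 0.03. These are descriptions over arrays that share their groups, so the rapamycin shift itself enters them. On deviations from group means, which remove that shift, Hmgcs1 and Insig1 had an r of 0.90. That r rests mainly on the rapamycin-treated Atg7-/- arrays. There Hmgcs1 deviated by -0.77, -0.02, 0.35 and 0.44, and Insig1 by -0.67, -0.04, 0.30 and 0.42. The furthest deviations elsewhere were 0.14 for Hmgcs1 (untreated Atg7-/- replicate 4) and -0.18 for Insig1 (rapamycin-treated Atg7+/- replicate 4). No r was taken over the other groups alone. Of 14410 other genes ranked, the one most like the mean of the 6 genes other than Srebf2 was Stard4, which encodes a cholesterol transfer protein. Its r was 0.949 over 16 arrays and 0.942 on deviations. The largest deviations of Stard4 were also on rapamycin-treated Atg7-/- arrays, from -0.63 to 0.55. Stard4 read 5.88, 6.22, 6.88 and 7.05 in rapamycin-treated Atg7-/- cells, against 6.71, 6.93, 6.87 and 6.74 in untreated Atg7-/- cells. In Atg7+/- cells it read 6.54, 6.38, 6.70 and 6.48 with rapamycin, against 6.85, 6.95, 6.82 and 6.76 without. Like Hmgcs1, its treated and untreated arrays were separate in Atg7+/- cells and overlapped in Atg7-/- cells. Its own rapamycin differences were -0.30 in Atg7-/- cells and -0.32 in Atg7+/- cells, given as a description. After Stard4 came Plxnc1 (r = 0.892), a semaphorin receptor, Sit1 (0.889), a transmembrane adaptor of T cells, Shkbp1 (0.876), Msmo1 (0.873) and Arhgef6 (0.862). Stard4 kept rank 1 when each rapamycin-treated Atg7-/- array was left out in turn, whereas Msmo1 went to rank 377 without replicate 1.

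The genes most like Srebf2 alone were Kcnn4, a calcium-activated potassium channel (r = 0.968), Sidt1 and Nrn1 (0.953 each). They were chosen over arrays that include the fall of Srebf2, so their own rapamycin differences follow from that choice and were given no test. The difference was -0.52 in Atg7-/- cells and -0.59 in Atg7+/- cells for Sidt1, and it was -0.70 in Atg7+/- cells for Kcnn4. For Nrn1, which encodes neuritin, it was -1.38 in Atg7-/- cells. On deviations from group means a different set led, with Rsu1, Rdh11 and Actn4 (0.932, 0.932 and 0.914).

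The promoters of the genes were read to set their sequences beside these values. RefSeq windows on GRCm38.p6, from 250 bases before to 50 bases after the annotated start, were at hand for 5 of the 7 genes: Srebf2, Hmgcs1, Lss, Hsd17b7 and Insig1. Shown are Srebf2 and Hsd17b7, which fell in both genotypes, Hmgcs1, which holds the sterol element, and Insig1, which did not pass in either. The windows are chr15:82147019-82147318 on the + strand for Srebf2, chr13:119690101-119690400 on the + strand for Hmgcs1, chr1:169969156-169969455 on the - strand for Hsd17b7 and chr5:28071162-28071461 on the + strand for Insig1. Capitals mark the sterol element in Hmgcs1, its first 8 bases in Srebf2, where the full element is not matched, and an E-box in Hsd17b7 and Insig1.
Srebf2: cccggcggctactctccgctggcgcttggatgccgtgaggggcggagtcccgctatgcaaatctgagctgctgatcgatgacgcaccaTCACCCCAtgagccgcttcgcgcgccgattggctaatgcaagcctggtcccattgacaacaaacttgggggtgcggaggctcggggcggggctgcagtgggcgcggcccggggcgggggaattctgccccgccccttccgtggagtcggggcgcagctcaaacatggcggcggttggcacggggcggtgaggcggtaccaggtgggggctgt
Hmgcs1: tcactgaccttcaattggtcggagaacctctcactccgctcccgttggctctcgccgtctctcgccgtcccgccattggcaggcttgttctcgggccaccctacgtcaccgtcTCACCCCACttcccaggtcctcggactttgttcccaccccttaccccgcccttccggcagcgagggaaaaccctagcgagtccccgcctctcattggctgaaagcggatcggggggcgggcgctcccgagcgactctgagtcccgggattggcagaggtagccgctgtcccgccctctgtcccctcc
Hsd17b7: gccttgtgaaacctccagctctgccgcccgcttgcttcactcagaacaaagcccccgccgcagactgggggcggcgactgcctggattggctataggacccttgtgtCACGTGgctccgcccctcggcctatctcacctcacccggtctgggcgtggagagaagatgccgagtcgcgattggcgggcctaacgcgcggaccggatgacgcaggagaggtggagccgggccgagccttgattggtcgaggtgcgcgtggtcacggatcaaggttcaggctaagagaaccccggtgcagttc
Insig1: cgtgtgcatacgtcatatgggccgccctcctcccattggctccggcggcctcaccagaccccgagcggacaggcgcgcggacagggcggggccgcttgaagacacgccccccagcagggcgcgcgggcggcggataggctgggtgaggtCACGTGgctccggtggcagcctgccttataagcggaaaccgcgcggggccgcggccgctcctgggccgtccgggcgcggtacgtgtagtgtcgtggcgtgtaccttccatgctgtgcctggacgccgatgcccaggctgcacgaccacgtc

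All motifs were searched on both strands. The classical sterol element TCACCCCAC, to which SREBPs are known to bind, was found in Hmgcs1 at bases -137 to -129, counted from the start, and in 0.551% of all 32841 windows. Its looser form TCACNCCAC, which includes it, was in Hmgcs1 alone of the 5 and in 1.24% of windows. The 8 bases TCACCCCA, a search added after the sequences were seen, were also in Srebf2 at -162 to -155, and in 1.56% of windows. The E-box CACGTG was in Hsd17b7 at -143 to -138 and in Insig1 at -101 to -96, against 7.15% of windows. These 2 windows also shared the longest run of identical bases of any pair of the 5, 14 bases around the E-box (gtCACGTGgctccg). Beside that shared run, Hsd17b7 was lower with rapamycin in both genotypes on separate arrays, and Insig1 overlapped in both.

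CCAAT, the motif of NF-Y, and GGGCGG, the motif of Sp1, factors known to act beside SREBPs, were in 5 of 5 windows each, against 37.4% and 35.7% of all windows. Of the other tested enzymes, 12 had a window, of which 12 held CCAAT, 10 held GGGCGG, 2 held CACGTG (Dhcr7 and Sc5d) and 0 held TCACCCCA. The 5 windows had a GC content of 64.7% to 71.7%, against a median of 52.7% over all windows, and GGGCGG is itself made of G and C. A match is a run of letters in the window and not a shown binding site, and a missing match says only that those letters are not in these 300 bases.

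**Figure D5:**
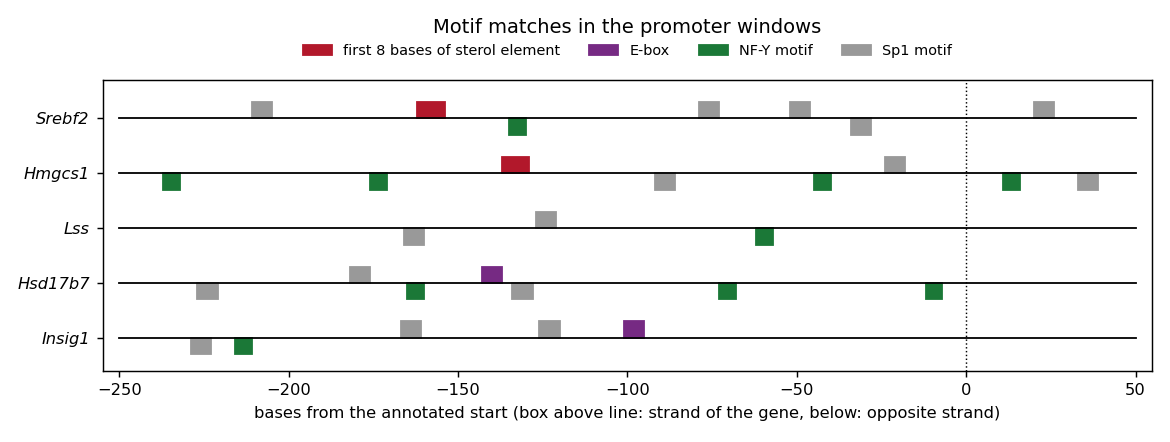
Position of motif matches (boxes) in the promoter windows of 5 genes, in bases from the annotated start (dotted line), with boxes above the line on the strand of the gene and those under it on the opposite strand. The first 8 bases of the sterol element, a search added after the sequences were seen, appear in Srebf2 and Hmgcs1, the E-box in Hsd17b7 and Insig1, and the NF-Y and Sp1 motifs in all 5. The full element, matched in Hmgcs1 alone, has no box of its own.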

How the data were processed

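The authors deposited a table of log2 signals by probe set and array, and the submitters' processing notes name RMA and Partek 6.6. The log base is not written in the file and was taken as 2. The sources used here give neither a genome build nor batch labels. Of 41345 probe sets, 23521 had 1 symbol in GEO's platform annotation, 1814 had several and 16010 were not listed. They gave 22180 genes, each read from its brightest probe set. Genes whose highest group mean exceeded 3.549, the 30th percentile of all values, were tested (16760 genes, 5420 left out).

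The 16 arrays were fitted together in limma 3.58.1 (lmFit and eBayes, R 4.3.3), with a mean for each group and 12 residual and 5.64 prior degrees of freedom. Tests were two-sided, with Benjamini-Hochberg adjustment over the 16760 genes and a threshold of 0.05. A single spread per gene served every group, and the fit was tested on simulated data. The 7 genes and all lists were chosen with earlier results of these data known. Beyond the 7, sterol and fatty acid genes called in at least 1 comparison were named, with Scap and Insig2 always. Srebf1, Fdps, Mvk, Ggps1, Nsdhl, Tm7sf2, Sc5d, Dhcr7 and Elovl6 were described for their roles, chosen after their values were seen. The genes most like the 7 were ranked by Pearson r, leaving out predicted genes, Rik clones, microRNA and small nucleolar genes, odorant receptors and antigen receptor segments. Some listed genes are not reported here. Same-numbered replicates of different groups had deviations correlated at -0.0829 to 0.358. Differently numbered arrays were not set beside them, so this range cannot decide whether the numbers pair samples. The main fit did not take them to do so. Arrays give no read depth, so their number limits the precision. Alternatives tried were the filter, the probe set rule, quantile normalization, median centring, eBayes with trend and robust options, array weights, fits of only the groups compared, a replicate block and leaving out each array.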

Additional observations from a re-analysis of the deposited data

How the results depend on the processing

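The falls of Srebf2 and Hsd17b7 with rapamycin kept their direction and stayed called in both genotypes under every alternative tried. The number of the 7 genes called was 2 to 3 in Atg7-/- cells and 2 to 3 in Atg7+/- cells when single arrays were left out, and 4 in Atg7+/- cells when only the groups compared were fitted, where fewer samples give the spread (Hmgcs1 and Lss joined, adjusted p = 0.0123 and 0.0228). With replicate number as a block, 3 of 7 were called in Atg7-/- cells, Lss being added (adjusted p = 0.0425), and all other calls on the 7 genes stood. Over all genes, the count called between genotypes in untreated cells was 527, and became 318 with median centring and 974 with array weights. With rapamycin it was 543, and became 350 with median centring, 820 with the 50th percentile filter, 886 with the trend and robust options and 20 with only the groups compared. Leaving out single arrays gave 284 to 694 genes between genotypes in untreated cells, 95 to 789 with rapamycin, 1559 to 2785 for rapamycin in Atg7+/- cells, 2533 to 3420 in Atg7-/- cells and 0 to 1 for the difference. The cause of these shifts was not tested.

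Signs changed for some estimates, none of them called. Srebf2 between genotypes with rapamycin was 0.0516 with median centring and 0.0222 with array weights, Hmgcs1 there 0.0164 with array weights, Fdft1 for rapamycin in Atg7+/- cells 0.0128 with array weights, and the Lss difference of the rapamycin effects 0.025 with quantile normalization and 0.0226 with median centring. When single arrays were left out, the genotype difference in untreated cells ran from -0.0436 to 0.212 for Lss. With rapamycin it ran from -0.0622 to 0.0819 for Srebf2, from -0.209 to 0.194 for Hmgcs1, from -0.0354 to 0.101 for Lss, from -0.0386 to 0.256 for Fdft1 and from -0.3 to 0.0653 for Insig1. The rapamycin difference ran from -0.116 to 0.248 for Insig1 in Atg7-/- cells, and in Atg7+/- cells from -0.0462 to 0.0374 for Fdft1 and from -0.074 to 0.0136 for Insig1. The difference of the rapamycin effects ran from -0.0885 to 0.314 for Hmgcs1, from -0.177 to 0.0786 for Lss and from -0.0715 to 0.293 for Insig1. The cause was not tested. The leave-out of arrays for the rank of Stard4 was chosen after seeing the data. Groups of 4 arrays limit what small differences can be shown.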
